A study of Homo sapiens with 8 samples.

Results

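Complement is a cascade of plasma proteins and their cellular brakes, and 7 of its genes, C1R, C1S, C3, SERPING1, CD46, CD55 and CD59, were followed here through ribosome footprints of human skin fibroblasts. They were found by gene name in 2 tables of footprint values, which list 11079 genes with (Z)-4-hydroxytamoxifen (4-OHT) and 11546 without it. Of the 7 genes, 6 were in both tables, and CD55 was listed in neither. The 7 were chosen by name after their footprint levels in these same libraries, with and without 4-OHT and in both genotypes, had been seen, so every fold change and call below describes the genes and is not independent evidence for them.

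In the classical pathway the recognition molecule C1q carries the proteases C1r and C1s. C1r cuts and so activates C1s, which then cleaves C4 and C2. The cascades meet at C3, whose fragments tag surfaces and lead to the membrane attack complex. Host cells hold it back with the C1 inhibitor made from SERPING1 and with the surface proteins CD46, CD55 and CD59. Fibroblasts are a known source of C1r, C1s, C3 and C1 inhibitor outside the liver, and these 4 genes are known to be inducible by interferons.

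The cells were BJ, an established line of human skin fibroblasts, all carrying the label BJ-HRAS. HRAS is a growth-signalling GTPase, and 4-OHT is an estrogen receptor ligand. The 4 groups were SNORA13 knockout (KO, clones 66 and 69) with 7 days of 100 nM 4-OHT, wild type (WT, clones 15 and 54) with the same treatment, KO without 4-OHT, and WT without 4-OHT. SNORA13 is a small nucleolar RNA, of a class that guides modification of ribosomal RNA. Each group held 2 libraries, 1 per clone, and genotype and clone cannot be told apart. Values with and without 4-OHT stood in separate tables, so 4-OHT and any batch of the tables cannot be told apart either. No RNA abundance was analysed here, so changes in mRNA and in its translation are not separated, and in such bulk samples fewer cells of a type and less RNA per cell cannot be told apart.

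The values were scaled to between 189193 and 1710475 reads per library, as estimated from their steps, and the shallowest was KO clone 66 with 4-OHT. All 10 fibroblast markers checked were listed, COL1A1 and PDGFRB among them, and their summed level lay between 914 and 1237 RPKM (reads per kilobase of gene and per 1e6 library reads) with 4-OHT and between 2705 and 3372 RPKM without it. S100A4 alone gave 519 to 955 RPKM of this sum with 4-OHT and 191 to 257 without, so the other markers together fell further than the sum shows. With 4-OHT 7 of the 10 were lower and 1, S100A4, higher in KO clones. In WT clones 8 were lower and 1, again S100A4, higher. Of all 8620 genes tested, 10.8% were lower and 17.4% higher in KO clones, and 8.21% lower and 13.8% higher in WT clones. Of 12 macrophage or leukocyte markers, 3 were listed in each table. Their summed level lay between 113 and 169 RPKM with 4-OHT and between 59.4 and 121 RPKM without, nearly all of it from CD68 and CD14, while LYZ, CD163 and the C1q chains were not listed. Of 10 hepatocyte markers none was listed with 4-OHT and 3 were listed without it, at a summed level of at most 1.13 RPKM. Endothelial markers summed to at most 0.676 RPKM with 4-OHT and 1.12 RPKM without, and of 6 keratinocyte markers the 1 listed, KRT10, had 2.26 to 10.2 RPKM with 4-OHT and at most 0.843 RPKM without. The part of these shifts in the results below was not tested.

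Promoter stretches are shown for C1R and for CD59, the member that rose. No promoter sequence was at hand for C1S, C3 and SERPING1, so none of these was searched. Each is the 250 bases before the outermost RefSeq start (GRCh38.p14, minus strand, 5′ to 3′), chr12:7092446-7092695 for C1R and chr11:33736480-33736729 for CD59. Capitals mark the match to a motif, TTGCNNAA (C/EBP) in C1R and TTCNNNGAA (GAS, the interferon-gamma activated site) in CD59, both searched on both strands.
C1R: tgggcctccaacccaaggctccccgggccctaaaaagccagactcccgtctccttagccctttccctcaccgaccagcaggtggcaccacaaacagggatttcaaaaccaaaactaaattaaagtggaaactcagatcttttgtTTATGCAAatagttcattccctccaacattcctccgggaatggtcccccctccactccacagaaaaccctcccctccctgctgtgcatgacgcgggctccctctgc
CD59: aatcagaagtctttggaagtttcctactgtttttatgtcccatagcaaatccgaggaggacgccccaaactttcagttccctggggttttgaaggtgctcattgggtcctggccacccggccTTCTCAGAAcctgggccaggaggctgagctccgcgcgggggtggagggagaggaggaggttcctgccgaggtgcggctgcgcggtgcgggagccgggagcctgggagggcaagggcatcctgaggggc
The C/EBP letters occurred in 9.05% of 35116 promoter windows of this length and the GAS letters in 6.57%. The core of the interferon-stimulated response element (GAAA, any 2 bases, GAAA), found in 3.02% of windows, and the NF-kB core GGGNNTTCC, found in 5.78%, matched in none of the 9 windows of C1R, CD46, CD55 and CD59. The AP-1 letters TGANTCA, found in 6.57% of windows, matched at 2 places, both before the innermost of 4 CD59 starts. A second C1R start had 1 GAS and 1 C/EBP match, and the third CD59 start had 2 C/EBP matches. The windows of the first 2 CD59 starts overlap and hold the same GAS match. These matches describe letters and not binding, and nothing is read from a window with none.

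With 4-OHT, footprints on the C1 proteases and on the C1 inhibitor were lower in both genotypes, and footprints on CD59 were higher. Of 6 members tested in KO clones, 4 were lower (C1R, C1S, C3 and SERPING1) and 1 was higher (CD59). Among all 8620 genes tested, 10.8% were lower and 17.4% higher in KO clones at an adjusted p under 0.05, 28.2% in all. In WT clones 3 of the 6 were lower (C1R, C1S and SERPING1) and CD59 was higher, where 8.21% of all genes were lower and 13.8% higher, 22% in all. Treated and untreated clones did not overlap for C1R, C1S and SERPING1, all lower, and CD59, higher, in both genotypes. The same held for C3 in KO clones, whereas in WT clones a C3 value of 0 allows levels above the lowest untreated one. Of all genes, 25.8% were lower and 37% higher without overlap in KO clones, and 27.6% lower and 41.6% higher in WT clones. The median log2 fold change of the 6 was -1.81 in KO clones and -0.97 in WT clones, beside medians over all genes of 0.05 and 0.06. The test was limma-trend on log2(RPKM + 1) with Benjamini-Hochberg adjustment over all genes, and log2 fold changes on this scale understate the change of low genes. Nothing about the members is read from these counts, since the same contrasts were known when they were chosen.

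**Figure D1:**
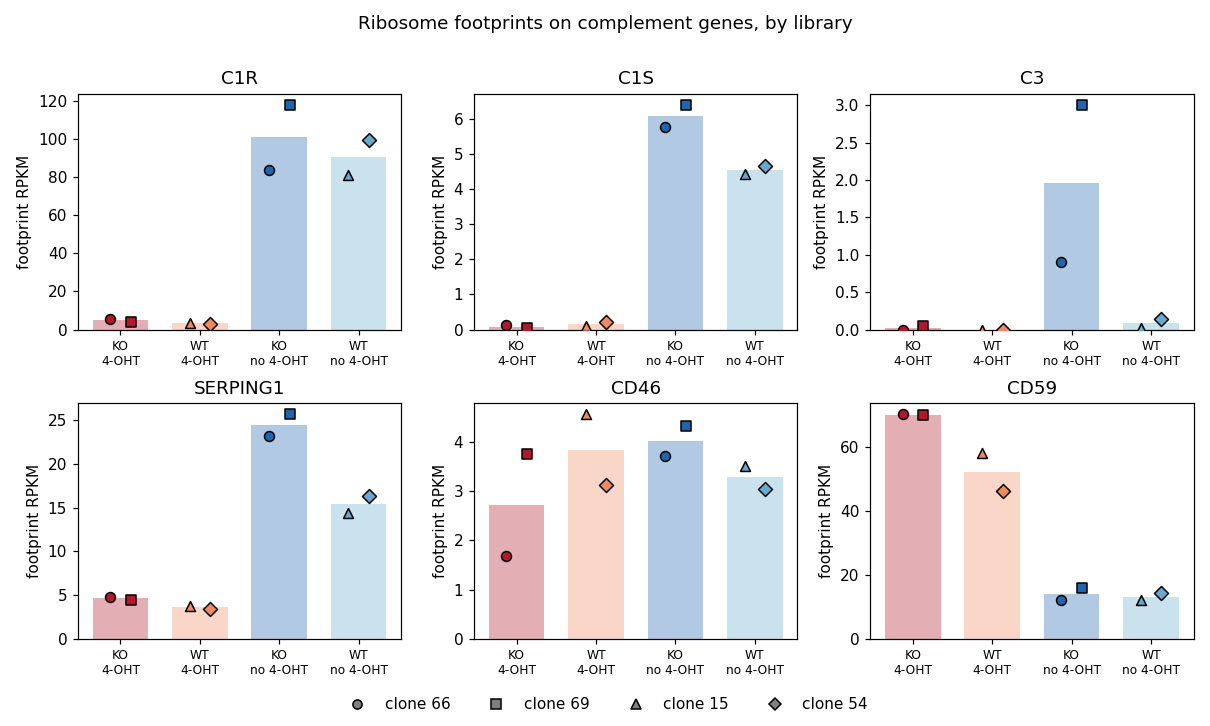
Footprint RPKM (y axis, linear, from 0) of the 6 listed members in each of the 8 libraries, with 1 panel per gene. Points are clones and bars are the mean of 2 clones. C1R, C1S and SERPING1 stand low and CD59 stands high in all 4 libraries with 4-OHT, C3 exceeds 0.5 RPKM in the 2 KO libraries without 4-OHT only, and the CD46 groups overlap between treatments.

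C1R (ENSG00000159403.17; GRCh38.p14 chromosome 12, 7080219 to 7092445) encodes the protease that starts classical pathway cleavage. It had 5.49 RPKM in KO clone 66 and 4.19 in KO clone 69 with 4-OHT, against 83.9 and 118 in the same clones without it. In WT clones 15 and 54 it had 3.54 and 3.15 RPKM with 4-OHT, against 81.3 and 99.9 without. All 4 libraries with 4-OHT were thus low, and no treated library came near an untreated one. The mean was 20.9-fold lower with 4-OHT in KO clones, a log2 fold change of -4.11 ± 0.23 (SE, adjusted p = 1.01e-04, limma-trend), and lower in 2 of 2 clones. In WT clones it was 27.1-fold lower, with -4.39 ± 0.23 (adjusted p = 1.07e-04) and again 2 of 2 clones. Of 8620 genes tested, 13 had a lower log2 fold change than C1R in KO clones and 4 had one in WT clones. Clone by clone the fold ranged from 15.3 in KO clone 66 to 31.7 in WT clone 54.

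C1S (ENSG00000182326.15; chromosome 12, 7060718 to 7071032) encodes the partner protease, cut by C1r, that cleaves C4 and C2. Its values were 0.127 and 0.0369 RPKM in KO clones 66 and 69 with 4-OHT, against 5.77 and 6.39 without. In WT clones 15 and 54 they were 0.107 and 0.226 RPKM with 4-OHT, against 4.43 and 4.64 without. Treated and untreated libraries did not overlap in either genotype. The log2 fold change was -2.71 ± 0.19 in KO clones (SE, adjusted p = 2.28e-04, limma-trend). In WT clones it was -2.25 ± 0.19 (adjusted p = 5.33e-04), and 2 of 2 clones were lower in each genotype. The test's minimum of 10 reads in 2 libraries was applied by the RefSeq length, and C1S met it only through the untreated libraries. These p-values are therefore a description and no support for a fall.

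The C1S values rest on few reads and on an unusual gene length. Multiplied by the 10.3 kb that RefSeq gives C1S, the values with 4-OHT came to fractions of a read, 0.247 in KO clone 66 and 0.371 in KO clone 69. At a length of 83.1 kb all 4 treated values fell within 0.0389 of a whole read, at 2 and 3 reads in KO clones and 15 and 11 in WT clones. Without 4-OHT the same length gave 432 and 908 reads in KO clones 66 and 69 and 484 and 304 in WT clones 15 and 54. The length was estimated from these values and is not given in the sources used here, and C1S in RPKM is about 8.05 times lower than the RefSeq length would make it. Relative to library depth, C1S reads with 4-OHT were 119-fold lower in KO clones (95% counting interval 51.1 to 369, exact Clopper-Pearson) and 32.7-fold lower in WT clones (22.1 to 50.3). By clone they were 45.4-fold lower in KO clone 66, 172-fold in KO clone 69, 41.1-fold in WT clone 15 and 20.7-fold in WT clone 54. These intervals cover counting error only, not the spread between clones.

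C1r and C1s act as one complex, so their reads were also compared within each library. With 4-OHT there were 7.00 and 18.3 C1R reads for each C1S read in KO clones 66 and 69, and 5.33 and 2.27 in WT clones 15 and 54. Without 4-OHT the figures were 2.36 and 3.0 in KO clones and 2.98 and 3.49 in WT clones. The treated libraries spread widely on 2 to 15 C1S reads, while the untreated ones lay close together. No order of the 2 genes' falls is read from so few reads.

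C3 (ENSG00000125730.16; chromosome 19, 6677704 to 6720650) encodes the central component on which all activation routes converge. With 4-OHT it was listed at 0 in KO clone 66 and at 0.0474 RPKM in KO clone 69, against 0.903 and 3.01 without 4-OHT. In WT clones 15 and 54 it was listed at 0 in both with 4-OHT, against 0.0176 and 0.147 without. In reads this was 0 and 2 in treated KO clones 66 and 69, against 35 and 221 untreated, and 0 and 0 in treated WT clones 15 and 54, against 1 and 5 untreated. C3 was thus measured above a handful of reads in the untreated KO libraries alone. A zero allowed up to 3 reads, which is 0.368 RPKM in KO clone 66, 0.0415 in WT clone 15 and 0.118 in WT clone 54.

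In KO clones C3 was called lower with 4-OHT by limma-trend, with a log2 fold change of -1.43 ± 0.29 (SE, adjusted p = 0.0106). It was lower in 2 of 2 clones. C3 met the test's minimum of 10 reads in 2 libraries only through the untreated KO libraries. This call and its p-value are therefore a description and no support for a fall. With only the 4 KO libraries in the fit this call was lost (adjusted p = 0.0543), and without either untreated KO clone C3 had too few reads to be tested. The pooled KO reads were 57.1-fold lower with 4-OHT (95% counting interval 15.6 to 474), mostly from clone 69, with 221 of 256 untreated reads. KO clone 66 alone was at least 2.45-fold lower, counting 3 reads for its 0. In WT clones the log2 fold change was -0.11 ± 0.29 (adjusted p = 0.824), where 6 untreated reads in all left little to lose.

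SERPING1 (ENSG00000149131.15; chromosome 11, 57597685 to 57614848) encodes C1 inhibitor, the serpin that inactivates C1r and C1s. It had 4.84 and 4.41 RPKM in KO clones 66 and 69 with 4-OHT, against 23.2 and 25.7 without. WT clones 15 and 54 had 3.80 and 3.43 RPKM with 4-OHT, against 14.4 and 16.3 without. The treated and untreated libraries were well apart in both genotypes. The mean was 5.30-fold lower in KO clones, with a log2 fold change of -2.18 ± 0.18 (SE, adjusted p = 3.71e-04, limma-trend), and 4.26-fold lower in WT clones, with -1.83 ± 0.18 (adjusted p = 7.95e-04). All 4 clones were lower. The ratio of means was thus nearer to 1 for the inhibitor than for its target C1R in both genotypes, a difference between genes that was not tested.

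CD59 (ENSG00000085063.16; chromosome 11, 33703010 to 33736479) encodes a lipid-anchored surface protein that blocks the last step of the membrane attack complex. It had 70.3 and 69.9 RPKM in KO clones 66 and 69 with 4-OHT, against 12.1 and 15.9 without. In WT clones 15 and 54 it had 58.0 and 46.1 RPKM with 4-OHT, against 12.2 and 14.2 without. It was the member that stood high with 4-OHT, in all 4 clones. The mean was 5.01-fold higher in KO clones, with a log2 fold change of 2.26 ± 0.21 (SE, adjusted p = 5.92e-04, limma-trend), and 3.95-fold higher in WT clones, with 1.90 ± 0.21 (adjusted p = 0.00114). Of 8620 genes, 131 had a higher log2 fold change in KO clones and 203 in WT clones. Between 364 and 3255 recovered reads stood behind each value.

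CD46 (ENSG00000117335.19; chromosome 1, 207752038 to 207795516) encodes a membrane cofactor that helps factor I cut C3b and C4b on the cell's own surface. Its values were 1.69 and 3.75 RPKM in KO clones 66 and 69 with 4-OHT, against 3.72 and 4.32 without. WT clones 15 and 54 had 4.57 and 3.13 RPKM with 4-OHT, against 3.52 and 3.06 without. The treated and untreated values overlapped in both genotypes. The log2 fold change was -0.49 ± 0.30 in KO clones (SE, adjusted p = 0.263, limma-trend) and 0.16 ± 0.30 in WT clones (adjusted p = 0.750). Without KO clone 69 with 4-OHT, the remaining treated KO library had 14 CD46 reads and the fit called CD46 lower in KO clones (-0.90, adjusted p = 0.0313).

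CD55 (GRCh38.p14 chromosome 1, 207321678 to 207360966), which encodes decay-accelerating factor, a surface protein that takes apart the C3 convertases, has no value here. CD46, also on chromosome 1, and the lipid-anchored CD59 are therefore the surface inhibitors that could be compared.

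**Figure D2:**
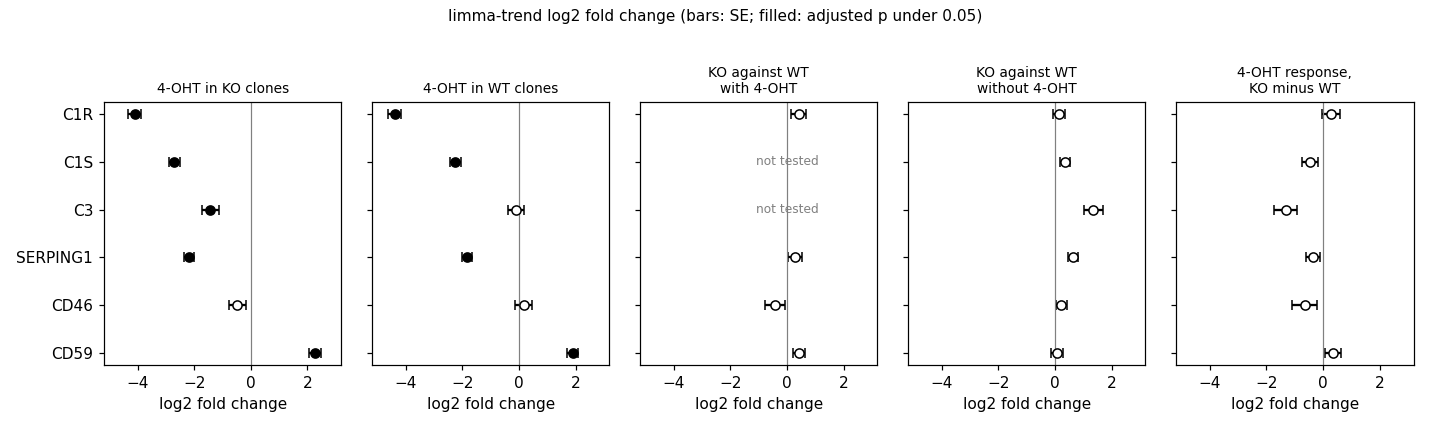
Log2 fold change on the log2(RPKM + 1) scale (x axis) of each listed member (rows) in the 5 comparisons (panels). Points are limma-trend estimates, bars are 1 SE, and filled points passed an adjusted p of 0.05. Filled points stand in the 2 panels on 4-OHT only, 5 in KO clones and 4 in WT clones.

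**Figure D3:**
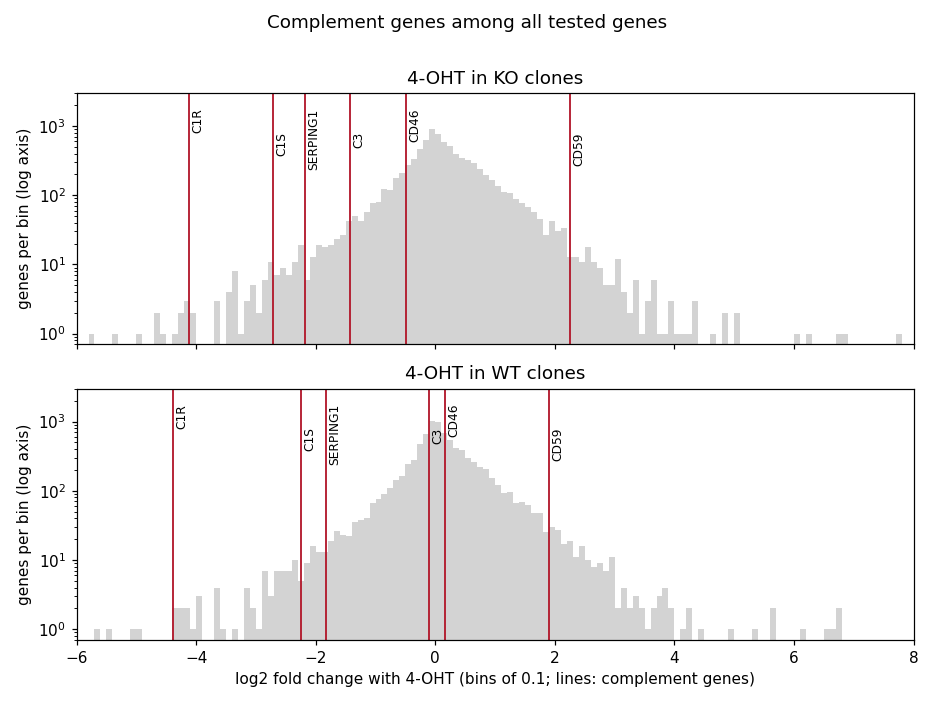
Number of genes (y axis, log scale) by log2 fold change with 4-OHT (x axis, bins of 0.1) among 8620 tested genes, in KO clones above and WT clones below. Lines mark the 6 members, with C1R far in the lower tail at -4.11 and -4.39, CD59 in the upper tail at 2.26 and 1.90, and CD46 near the bulk.

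The order of the members changed between treatments. Levels are in RPKM, that is per kilobase of the gene length behind the values, introns included, so they rank genes on that scale and not per coding length. With 4-OHT, CD59 stood first (70.1 ± 0.261 RPKM in KO and 52.1 ± 8.43 in WT clones, mean ± SD, n = 2). SERPING1 (4.62 ± 0.304 in KO and 3.61 ± 0.261 in WT) and C1R (4.84 ± 0.923 in KO and 3.34 ± 0.275 in WT) followed with overlapping clones, and in WT those of CD46 (3.85 ± 1.0) overlapped both. C1S and C3 came last, C1S with the long gene length behind its values. Without 4-OHT, C1R stood first (101 ± 24.2 in KO and 90.6 ± 13.1 in WT), followed by SERPING1 (24.5 ± 1.78 in KO and 15.4 ± 1.34 in WT). CD59 came next (13.98 ± 2.68 in KO and 13.2 ± 1.37 in WT), then C1S, CD46 and C3, and no 2 neighbours had overlapping clones in either genotype.

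The next comparison asked whether KO and WT clones differ with 4-OHT. None of 4 members tested was called, and neither was any of 7584 genes (0%) by limma-trend. At an unadjusted p under 0.05 there were 0 of the 4 members and 364 genes, and limma-voom called 22 genes higher and 27 lower, no member among them. CD59 had 70.3 and 69.9 RPKM in KO clones and 58.0 and 46.1 in WT clones, a log2 fold change of 0.43 ± 0.22 (SE, adjusted p = 0.818). C1R (0.42 ± 0.26, adjusted p = 0.818) and SERPING1 (0.29 ± 0.25, adjusted p = 0.826) gave similar sizes, and CD46 gave -0.42 ± 0.37 (adjusted p = 0.827). Clones of the genotypes did not overlap for C1R, SERPING1 and CD59, all 3 higher in KO, as was so for 19.2% of all genes tested. C1S and C3 missed the minimum of 10 reads in 2 libraries, which was applied to reads by the RefSeq length. At the fitted length C1S would have met it, with 15 and 11 reads in WT clones. With no such minimum C1S gave -0.11 and C3 0.03, with adjusted p of 0.822 and 0.831.

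Without 4-OHT, the KO and WT clones were likewise compared within 1 table. Of 6 members 0 were called, nor was any of 7973 genes (0%) by limma-trend. At an unadjusted p under 0.05 there were 2 members, C3 and SERPING1, and 677 genes, and limma-voom called 34 genes higher and 31 lower but none of the 6. C3 had 0.903 and 3.01 RPKM in KO clones 66 and 69, against 0.0176 and 0.147 in WT clones 15 and 54, a log2 fold change of 1.35 ± 0.34 (SE, adjusted p = 0.516) that 5 of 7973 genes exceeded. In reads this was 35 and 221 in KO clones, against 1 and 5 in WT clones. C3 thus met the read minimum only through the KO clones, so its rank and p-values here are no support for a difference. Per read of library depth the pooled KO value was 34.4 times that of WT (95% counting interval 15.6 to 94.5), but the KO clones themselves differed several-fold and the test across clones did not pass. SERPING1 had 23.2 and 25.7 RPKM in KO clones against 14.4 and 16.3 in WT clones, a ratio of 1.59 and a log2 fold change of 0.64 ± 0.17 (adjusted p = 0.516). For C1S the log2 fold change was 0.35 ± 0.17 (adjusted p = 0.650), for CD46 0.23 ± 0.18 (0.750), for C1R 0.14 ± 0.22 (0.896) and for CD59 0.07 ± 0.20 (0.949). C1S, C3, SERPING1 and CD46 were higher in KO with no overlap of clones, as were 18.8% of all genes. The last 2 log2 values, of C1R and CD59, turned negative when WT clone 15 or KO clone 69 was left out.

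The difference between the genotypes in their response to 4-OHT was tested as an interaction over all 8 libraries. It was called for 0 of 6 members and 0% of 8620 genes by limma-trend, with 1 member (C3) and 450 genes at an unadjusted p under 0.05, and limma-voom called 1 gene higher and 3 lower and no member. For C3 it was -1.32 ± 0.41 (SE, log2, KO minus WT, adjusted p = 0.856), which 73 genes fell below. C3 met the read minimum only through the untreated KO clones, so its rank and p-values here are no support for a difference. The other members ranged from -0.65 ± 0.43 for CD46 to 0.36 ± 0.29 for CD59. A C3 response that passed in KO clones and not in WT clones is therefore not shown to differ between them.

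The rest of the complement system was followed through gene lists. A gene that is not listed has no value here, which is not read as low or absent expression. Of 54 further complement genes in 5 lists (recognition and early proteases, alternative pathway, terminal pathway, soluble regulators, membrane regulators and receptors), 21 were listed in at least 1 table and 12 in both. Of the 6 that could be tested for 4-OHT, 5 were lower in KO clones (median log2 fold change -1.34) and 4 in WT clones (median -0.80), and 0 were higher. Of all 8620 genes tested, 10.8% were lower in KO clones (median 0.05) and 8.21% in WT clones (median 0.06). These lists too were drawn up with earlier results of these data known.

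Among recognition molecules and early proteases, COLEC12, a scavenger receptor of the collectin family, had 0.541 and 0.681 RPKM in KO clones 66 and 69 with 4-OHT, against 9.41 and 7.17 without (log2 fold change -2.52 ± 0.25, SE, adjusted p = 7.11e-04, limma-trend). In WT clones 15 and 54 it had 0.590 and 0.341 RPKM with 4-OHT, against 5.84 and 3.94 without (-1.99 ± 0.25, adjusted p = 0.00187). MASP1, whose gene encodes a protease of the lectin pathway, had 0.140 and 0.409 RPKM in treated KO clones, against 2.73 and 2.07 untreated (-1.42 ± 0.21, adjusted p = 0.00333). In WT clones MASP1 had 0.468 and 0.636 RPKM with 4-OHT, against 3.21 and 3.57 without (-1.50 ± 0.21, adjusted p = 0.00308). Both were low in all 4 treated libraries. C1RL, a C1r-like protease, was the tested gene of this list that was not called. C2, C4A and C4B, the substrates of C1s, were listed without 4-OHT only, at 0 to 0.142 RPKM, and reads of the near-identical C4A and C4B cannot be told apart with certainty.

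Of the soluble regulators, 3 of 13 were tested. CFI, the protease factor I that inactivates C3b, had 0.341 and 0.331 RPKM in KO clones 66 and 69 with 4-OHT, against 2.58 and 2.29 without (log2 fold change -1.36 ± 0.16, SE, adjusted p = 0.00126, limma-trend). In WT clones 15 and 54 CFI had 0.289 and 0.221 RPKM with 4-OHT, against 1.39 and 1.46 without (-0.95 ± 0.16, adjusted p = 0.00562). CLU, the chaperone clusterin, was lower in KO clones, with 4.05 and 9.89 RPKM with 4-OHT against 19.9 and 15.6 without (-1.33 ± 0.40, adjusted p = 0.0438). In WT clones CLU had 5.11 and 8.72 RPKM with 4-OHT, against 8.27 and 11.5 without, and was not called.

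Few values stood for the alternative and terminal pathways. CFB, factor B of the alternative C3 convertase, was listed without 4-OHT only, at 1.22 and 1.38 RPKM in KO clones 66 and 69 and 0.475 and 1.59 in WT clones 15 and 54. CFD was listed at 0 in all 4 untreated libraries and CFP was in neither table. C5 alone of 7 terminal pathway genes was listed, at no more than 0.0906 RPKM in any library. Among receptors C3AR1, the receptor of the C3a fragment, reached at most 0.872 RPKM in KO clone 69 with 4-OHT, and no receptor could be tested.

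**Figure D4:**
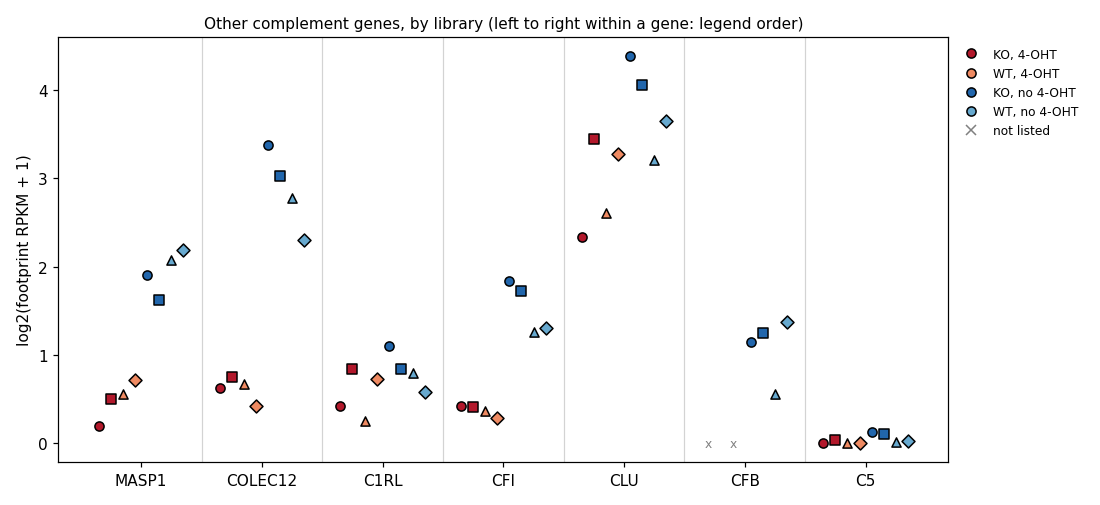
Log2(RPKM + 1) (y axis) of 7 complement genes outside the members, with 1 point per clone and library. Within a gene the groups run from KO with 4-OHT to WT without it. MASP1, COLEC12 and CFI are lower in every library with 4-OHT than in every library without it, CFB is not listed with 4-OHT, and C5 stays near 0.

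To place the members among other genes, the 3 genes with the most similar pattern were sought for each, by the root mean square distance between mean-centred log2(RPKM + 1) profiles over 8 libraries among 8620 genes. The libraries fall into 2 treatment groups, so the correlations beside the distances mostly reflect that split. For C1R they were DCN (distance 0.23, Pearson r 0.995), COL3A1 (0.30, r 0.992) and IFIT1 (0.38, r 0.990). For C1S they included CPZ (0.15, r 0.993) and COL5A2 (0.16, r 0.995). For SERPING1 they were DKK1 (0.09, r 0.996), IFIT2 (0.18, r 0.989) and F3 (0.19, r 0.989). CD59 was nearest to UAP1 (0.10, r 0.996), PCNP (0.11, r 0.996) and HPCAL1 (0.14, r 0.993), and CD46 to NKIRAS1 (0.10, r 0.95), GFM1 (0.11, r 0.942) and LANCL1 (0.12, r 0.945). C3 had MX1 (0.27, r 0.915), CTSC (0.36, r 0.871) and STC2 (0.36, r 0.874) nearest.

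Like C3, MX1, an interferon-induced GTPase, was higher in untreated KO clones 66 and 69, at 1.52 and 1.77 RPKM, than in untreated WT clones 15 and 54, at 0.332 and 0.261, a difference singled out after its values were seen (log2 fold change 1.03 ± 0.14, SE, adjusted p = 0.281, limma-trend). Of 30 interferon response genes 26 were tested for 4-OHT. In KO clones 22 were lower (median log2 fold change -2.25), beside 10.8% of all 8620 genes tested. In WT clones 19 were lower (median -1.49), beside 8.21% of all genes, and 0 were higher in either genotype. The summed level of the list was 235 to 261 RPKM in KO and 229 to 248 in WT clones with 4-OHT. Without 4-OHT it was 1751 to 2617 in KO and 1313 to 1986 in WT clones. The part of the interferon response in the fall of C1R, C1S and SERPING1 was not tested.

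CD59 shares its lipid (GPI) anchor and SERPING1 its serpin fold with other proteins. Of all 8620 genes tested for 4-OHT, 17.4% were higher and 10.8% lower in KO clones, and 13.8% higher and 8.21% lower in WT clones. Of 12 tested GPI-anchored proteins from a list of 17, 5 were higher and 1 lower in KO clones with 4-OHT (median log2 fold change 0.20). In WT clones 4 were higher and 2 lower (median 0.25). Those higher in both genotypes were NT5E, PLAUR, SEMA7A and PRNP, with NT5E, an enzyme that makes adenosine, at 4.32 ± 0.21 in KO and 3.73 ± 0.21 in WT clones (log2 fold change ± SE). The lower gene in both was BST2, itself in the interferon list. Of 4 tested secreted serpins from a list of 10, SERPINH1, a collagen chaperone, was lower in both genotypes and SERPINE2 was higher in KO clones.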

How the data were processed

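Ribosome footprints of 8 libraries were analysed. Reads were aligned with STAR to GRCh38, per the submitters' processing notes, while versions, read counter and annotation were not given in the sources used here. The deposited values carry no unit and were read as RPKM, since values multiplied by gene spans gave close to a common sum over libraries. Between 79.1% and 83.9% of low values (under 6.5 reads) were within 0.1 of a whole number of reads, which gave approximate reads. Spans came from RefSeq (GRCh38.p14) for 10900 of 11079 genes with 4-OHT and 11362 of 11546 without it. For C1R, C1S and C3 the length was fitted to values under 100 reads.

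Tests were limma-trend (limma 3.58.1) on log2(RPKM + 1), for genes reaching 10 recovered reads in 2 or more libraries. Genotypes were compared within a table (4 libraries). 4-OHT and the interaction used all 8 libraries. The same clone stands with and without 4-OHT, so clones pair these libraries by the labels (the clones' deviations with and without 4-OHT correlated at r = 0.00128 in KO and 0.139 in WT clones over 8620 genes). The labels do not say that libraries of a group came from separate cultures beyond the clones, so p-values measure the spread between these libraries. An exact permutation test of 2 against 2 cannot give a p below 0.333 and was not used. The script was tested on simulated data.

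The members and lists were chosen with earlier results of these data known. Named were the members, up to 4 genes per complement list (those called, or the highest) and the 3 most similar genes per member. Of the genes so chosen in lists without calls, not all are described, and genes of the GPI, serpin and interferon lists were named after their values were seen. Alternatives were another pseudocount, filter, scaling, test, choice of libraries, clone block and leaving out each library. Every sequence is from RefSeq. Some genes that this rule names are not reported here.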

Additional observations from a re-analysis of the deposited data

Results flagged for a closer look

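CD46 moved in opposite directions with 4-OHT in the genotypes, lower in both KO clones (1.69 and 3.75 RPKM with 4-OHT, against 3.72 and 4.32 without) and higher in both WT clones (4.57 and 3.13 RPKM with 4-OHT, against 3.52 and 3.06 without), which flagged it. The test of the difference (KO minus WT) gave -0.65 ± 0.43 on the log2 scale (SE, adjusted p = 0.856, limma-trend), so it did not pass, and KO clone 66 with 4-OHT had 14 CD46 reads.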

How the results depend on the processing

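The calls of C1R, C1S, SERPING1 and CD59 with 4-OHT kept their direction and passed in all 11 alternatives run in each genotype, with adjusted p of at most 0.0139. C3 in KO clones could be tested in 8 of the 11 alternatives. It passed in 7 of these and was lost with only the 4 KO libraries in the fit. It could not be tested without untreated KO clone 66, without untreated KO clone 69, or with the filter of at least 1 RPKM in at least 2 libraries. C1S and C3 entered the main test only through untreated libraries, so their passing is no support for a fall. No member was called between genotypes or in the interaction under any alternative run. CD46 turned negative in WT clones with median-ratio scaling (-0.048) and without WT clone 15 with 4-OHT (-0.053), and leaving out 1 library gave -0.053 to 0.38. Between genotypes without 4-OHT, C1R turned negative without WT clone 15 or KO clone 69 (-0.10 to 0.39 over the libraries left out), and so did CD59 (-0.11 to 0.25).

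Over all genes, 2432 were called with 4-OHT in KO clones, 1290 with only the 4 libraries, and between 1106 and 3453 when 1 library was left out. In WT clones 1899 were called, 2974 by limma-voom and between 810 and 1076 when 1 library was left out. Median-ratio scaling gave 1005 higher and 1329 lower in place of 1503 and 929 in KO clones, and 818 and 970 in place of 1191 and 708 in WT clones. By limma-voom the median log2 fold change of all genes was 0.23 in both genotypes. Between genotypes with 4-OHT, limma-voom called 49 genes, and leaving out 1 library gave 0 to 829, the 829 without KO clone 69. Without 4-OHT, limma-voom called 65 genes, all 8 libraries in the fit 3, the clone as a random replicate block 3, and leaving out 1 library gave 0 to 3. For the interaction limma-voom called 4, and leaving out 1 library gave 0 to 2. The cause of these moves was not tested.

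With the clone as a fixed replicate block, the paired fit of 4-OHT, no member's call changed, and 2030 genes were called in KO clones and 1572 in WT clones. No clone stands in both genotypes, so none pairs them. Levels per coding length were not run, since no coding lengths were used here. Depth limits C3 and C1S most, with 0 to 15 reads per library with 4-OHT.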
